A study of Mus musculus with 3 samples.

Results

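Genes of the BTB and SCAN zinc finger transcription factors were followed in RNA from mouse testis material labelled as spermatids. It was measured on Affymetrix Mouse Gene ST arrays, which carry several probes for each gene. The members were the probe sets that name exactly 1 gene and whose array symbol begins with Zbtb, Zscan or Zkscan and a number, or with Bcl6. This gave 71 of the 21789 probe sets naming 1 gene, and 67 of 19938 named genes: 44 with BTB symbols (42 Zbtb genes, Bcl6 and Bcl6b) and 23 with SCAN symbols (12 Zscan and 11 Zkscan genes). Of the 67, 2 were no zinc finger genes of these families: Zbtb8os encodes archease, a cofactor of tRNA ligation, and Zbtb11os1 is a long non-coding RNA beside Zbtb11. Both keep their place in the counts, and the counts without them are given.

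The material was labelled as spermatids, the haploid germ cells that follow meiosis, from wild-type male BALB/c mice aged 30 days. There was 1 group of 3 arrays, whose number limits the precision, with no treatment, no altered gene and no control group, so nothing could be compared between conditions. Testis tubules were cut up, homogenised and strained through a 70 µm mesh. The labels describe no sorting of cells and do not say whether the replicates came from separate animals, so the spread between arrays may be technical. The 3 arrays were alike over all 35556 probe sets, with medians of 7.17, 7.20 and 7.17 and Pearson correlations between probe set values of 0.992 to 0.995. Values are Robust Multichip Average (RMA) levels on the log2 scale, where a step of 1 is a doubling of signal. A gene with several probe sets was given their median. The level of a probe set also depends on how well its probes bind, so the order of genes by level given here is not an order of transcript abundance.

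Zinc finger transcription factors of the C2H2 class bind DNA through a row of small zinc-holding loops. In BTB zinc finger proteins the amino-terminal BTB domain pairs the proteins with each other and recruits corepressors with histone deacetylases, so that many of them act as repressors. The SCAN domain is likewise a domain through which proteins pair, and Zkscan proteins can also carry a KRAB domain, which recruits the corepressor TRIM28. In the testis the best known member is Zbtb16, also called PLZF, which maintains spermatogonial stem cells.

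A background level was needed to say which genes gave a signal. It was set at 7.98, the 95th percentile of the mean levels of 211 genes that serve other organs, those of vomeronasal receptors and of keratin associated proteins of hair. For each gene limma tested, one-sided, whether the mean lay above that level, and p-values were adjusted over all named genes by the method of Benjamini and Hochberg. By that test 36.6% of the 19938 named genes were above background. A gene that was not called is not shown to be absent, since the median of those 211 genes was far lower, at 4.77. Of the 67 members 34 had exactly the same value on all 3 arrays, as had 46% of all named genes. For these the SD is 0, the test asks only whether the level lies above background, and the equality is not a lack of error.

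Markers of spermatids were above background on these arrays, and so were markers of several other cell types. All 6 elongating spermatid markers, all 6 round spermatid markers and all 6 spermatocyte markers were above background, with list medians of 12.68, 11.79 and 11.24. So were 2 of 10 spermatogonial, 3 of 5 Sertoli cell, 4 of 4 Leydig cell, 3 of 3 peritubular and 3 of 5 macrophage markers. The 6 T and B cell and 4 endothelial markers gave counts of 0 by limma, with and without adjustment at 0.05, and 0 had all 3 arrays over the level. The part of each cell type in a member's level was not tested. In such a mixed sample, fewer cells of a type and less RNA per cell cannot be told apart.

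The BTB and SCAN genes lay mostly in the middle range of levels in this RNA, and most were not called. Of the 67 members 17 (25.4%) were above background, against 36.6% of all named genes, and 16 of 65 without Zbtb8os and Zbtb11os1. The median level of the members was 7.48, close to that of all named genes at 7.45. The members lay nearer to each other than genes in general: their middle quartiles ran from 7.04 to 7.99, and those of all named genes from 6.48 to 8.84. Only 7 members (10.4%) exceeded a level of 9, against 23% of all named genes. Few were very low either, with 5 of 67 members under 6.5 against 5050 of 19938 named genes.

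The count of members called rested on the background level, since many lay close to it. At 9.16, the 99th percentile of the same 211 genes, 4 of 67 members (5.97%) were called, against 19.3% of all named genes. At 7.18, the 95th percentile of 1027 olfactory receptor genes, 44 of 67 (65.7%) were called, against 55% of all named genes. The members' share was thus below that of all named genes at 7.98 and at 9.16, and above it at 7.18. Only Zbtb10, Zbtb11, Zbtb8os and Zbtb44 were called at the highest of these levels, and they were called under all 12 alternative settings tried for single genes. The call of Zbtb44 at 9.16 rested on the higher of its probe sets, since the lower lay under that level.

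**Figure D1:**
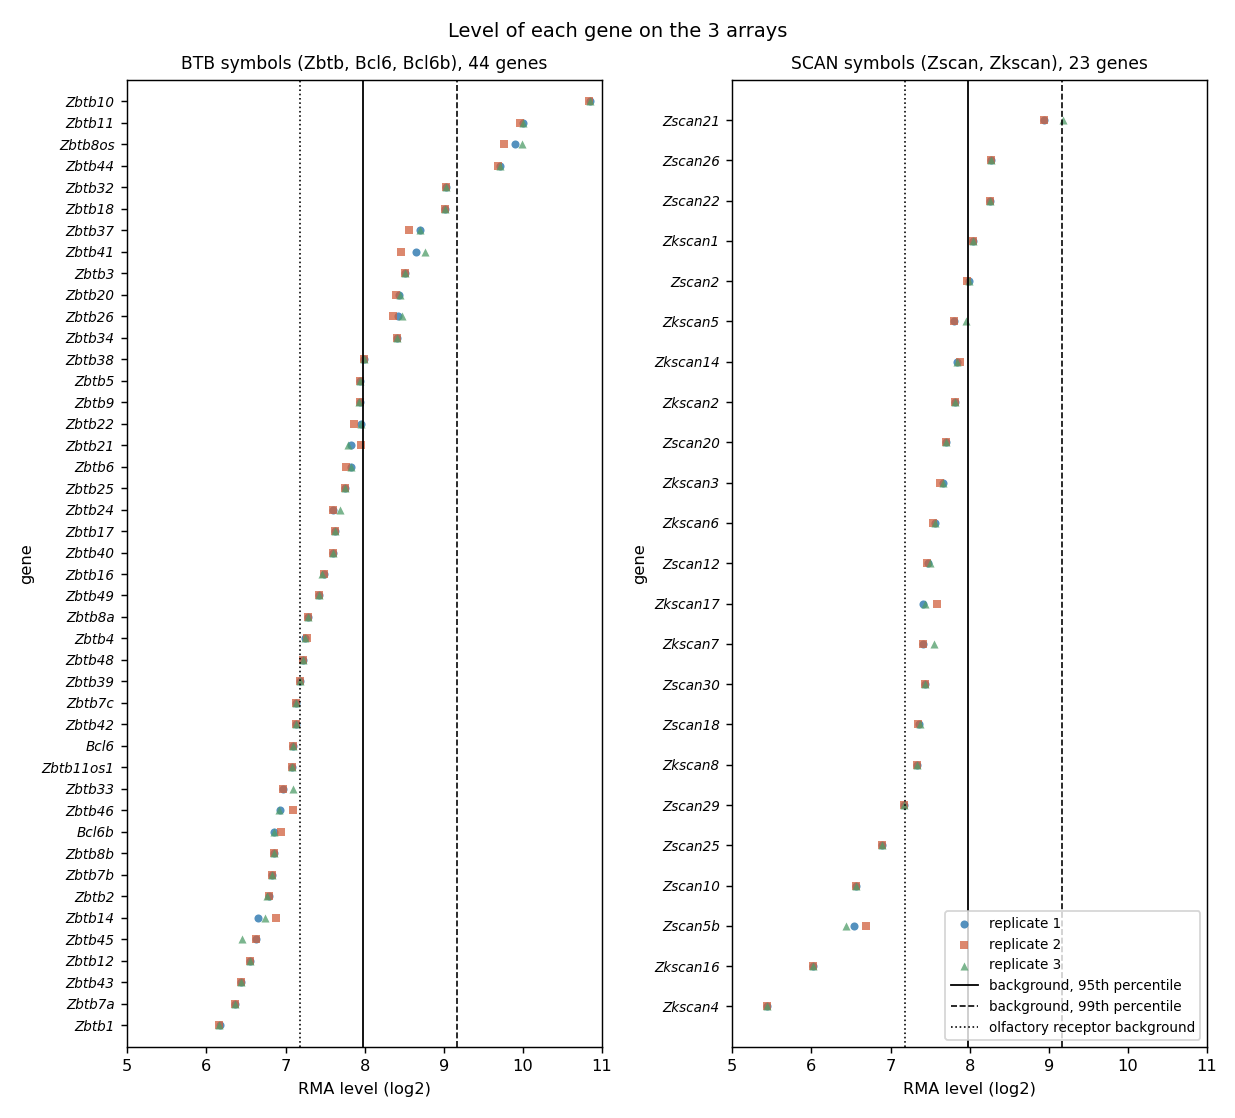
RMA levels (log2, horizontal axis) of the 44 genes with BTB symbols and the 23 with SCAN symbols on each of the 3 arrays, with genes in order of their mean. The solid line is the background level of 7.98, and the dashed and dotted lines are the 99th percentile level of 9.16 and the olfactory receptor level of 7.18. Only Zbtb10, Zbtb11, Zbtb8os and Zbtb44 lie to the right of the dashed line on all 3 arrays, and 15 genes lie within 0.3 of the solid line.

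Among the BTB symbols 13 of 44 (29.5%) were above background, against 36.6% of all named genes, and 12 of 42 without the 2 other genes. Their median was 7.54. Zbtb10, which encodes a zinc finger repressor, was the highest member. Its level was 10.84 on array 1, 10.83 on array 2 and 10.84 on array 3, which is 2.86 above background (SD 0.005, n = 3; limma adjusted p = 5.75e-07). Zbtb11, a regulator required for genes of mitochondrial function, was at 10.00, 9.96 and 10.00 on the 3 arrays, with a mean of 9.99 ± 0.03 (limma adjusted p = 4.27e-05). Both stayed far above background on every array.

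Zbtb44, a little-studied member, had a gene level of 9.71, 9.69 and 9.71 (limma adjusted p = 7.89e-06). That level is a median of 2 probe sets that stood far apart. The higher one was at 10.76, 10.72 and 10.76 and the lower one at 8.65 on all 3 arrays, a difference of 2.10. Both probe sets were above background when tested on their own, so the call at the background level did not rest on either. At the 99th percentile level of 9.16 the lower probe set, at 8.65, lay under the level. The call of the gene there rested on the higher probe set. Zbtb8os, the archease gene, lay between Zbtb11 and Zbtb44 at 9.90, 9.76 and 9.99, with a mean of 9.88. It is no transcription factor, and its neighbours Zbtb8a and Zbtb8b were at 7.29 and 6.86 with tied values and were not called.

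Zbtb32 and Zbtb18 followed with levels tied on all 3 arrays. Zbtb32, a repressor of cytokine genes in lymphocytes that is also known as a testis zinc finger gene, was at 9.02, which is 1.04 above background (limma adjusted p = 1.73e-10). Zbtb18, also called RP58 and known for its part in the differentiation of neurons, was at 9.02 as well (limma adjusted p = 1.74e-10). The very small p-values of these genes follow from their tied values and do not mean a larger signal than that of Zbtb10.

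The other called BTB genes were lower. Zbtb37 was at 8.70, 8.56 and 8.70, with a mean of 8.65 ± 0.08 (limma adjusted p = 0.00359), and array 2 stood below the others. Zbtb41 was at 8.65, 8.46 and 8.76, the widest spread of any member with an SD of 0.15 (limma adjusted p = 0.0151). Its call was lost whichever array was left out: without array 1, 2 or 3 the limma adjusted p was 0.132, 0.0514 and 0.126. The call of Zbtb37 was likewise lost without array 1 or array 3 (limma adjusted p = 0.0536 and 0.0824). With 2 arrays left, the level above background was 0.58 to 0.76 for Zbtb41 and 0.65 to 0.76 for Zbtb37. A test of 2 arrays is weak where their values differ, while tied values give it very small p-values. Without array 2 the arrays left for Zbtb37 were tied, and the limma adjusted p was 2.32e-17. A lost call therefore does not show that a gene rested on the array left out. The same limit holds for Zbtb26 and Zscan21 below.

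Zbtb20, a repressor of alpha-fetoprotein in liver and a factor of the hippocampus, was measured by 2 probe sets that were nearly equal. They were at 8.40 and 8.45, and the gene at 8.43 ± 0.02 (limma adjusted p = 0.000619). Another 3 called genes lie outside the rule by which genes were named. Of these Zbtb3 was at 8.51 and Zbtb34 at 8.41, both tied on the 3 arrays. Zbtb26 was at 8.42, 8.35 and 8.48, and its call was lost without array 1 or array 3 (limma adjusted p = 0.0743 and 0.0644). Zbtb38, which binds methylated CpG, was at 7.99 on all arrays. That is 0.0057 above the background level, so its call has no weight beyond the placing of that level, and it was lost after centring the arrays on their medians (limma adjusted p = 0.893).

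Several BTB genes known from blood cells were not called, unlike Zbtb32. Bcl6, the repressor of germinal centre B cells, was at 7.09 and Zbtb7b, also called ThPOK, which directs T cells to the CD4 lineage, at 6.82, both tied on the 3 arrays. Zbtb7a, also called LRF and a silencer of fetal globin, was at 6.37, again tied. Zbtb7c, placed here by its symbol and not as a gene of blood cells, was at 7.14 with tied values. Zbtb46, a marker of classical dendritic cells, was at 6.93, 7.09 and 6.92. Zbtb1, needed for lymphoid development, was the lowest BTB member at 6.17, 6.16 and 6.16. The T and B cell markers, listed with the cell type markers above, had a median of 6.61 and none was called. Of the macrophage markers 3 of 5 were called, with a median of 8.16.

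Zbtb16 was not above background in this RNA. It was at 7.48, 7.49 and 7.47 on the 3 arrays, a mean of 7.48 ± 0.01 that lies 0.50 below the level. Bcl6b, another gene of spermatogonial stem cell maintenance that responds to GDNF, was at 6.85, 6.94 and 6.85. The 10 spermatogonial markers had a median of 7.60, and the 2 called were Kit at 8.24 ± 0.04 (limma adjusted p = 0.00496) and Id4 at 8.59 ± 0.02 (limma adjusted p = 0.000182). With the olfactory receptor background of 7.18 Zbtb16 was called (limma adjusted p = 0.000218) and Bcl6b was not.

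Genes of DNA methylation reading, MYC partnering and telomeres were mostly not called either. Zbtb33, also called Kaiso, reads methylated CpG and was the only member on chromosome X. It was at 6.96, 6.96 and 7.10. Zbtb4, its paralog in that function, was at 7.25, 7.28 and 7.25, so that of these 3 readers only Zbtb38 reached the background level. Zbtb17, also called Miz-1, a partner of MYC, was at 7.63 and Zbtb48, also called TZAP, a telomere binding protein, at 7.21, both with tied values. Zbtb24, mutated in a syndrome of immunodeficiency and centromere instability, was at 7.60, 7.60 and 7.69. Zbtb40 was at 7.60 with tied values, and Zbtb2 at 6.78 from probe sets at 6.47 and 7.09.

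A set of BTB genes lay just under the level and cannot be told from those just above it. Zbtb5 was at 7.94 and Zbtb25 at 7.75, both tied, Zbtb9 at 7.94 ± 0.0019 and Zbtb22 at 7.92 ± 0.05. Zbtb21 was at 7.83, 7.95 and 7.79, and Zbtb6 at 7.81 ± 0.04. At the low end, Zbtb43 was at 6.44 and Zbtb12 at 6.55 with tied values. Zbtb14 at 6.65, 6.88 and 6.74 was among the 5 members with the largest SD, at 0.12. Zbtb11os1, the non-coding gene beside Zbtb11, was at 7.08 on every array and was not called, while Zbtb11 was.

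Of the SCAN symbols 4 of 23 (17.4%) were called, against 36.6% of all named genes, and their median was 7.48. At the olfactory receptor level of 7.18 it was 17 of 23 (73.9%), with 27 of 44 BTB symbols (61.4%) and 55% of all named genes. The order of the shares of SCAN and BTB symbols thus turned round with the level, and their difference was not tested, because the genes of a list are not replicates. Zscan21, also called Zipro1 and known from precursors of cerebellar granule cells, was the highest at 8.94, 8.94 and 9.18. Its mean was 9.02 ± 0.14 (limma adjusted p = 0.00454), and array 3 alone stood higher. The call was lost without array 1 or array 2 (limma adjusted p = 0.0558 and 0.0791), which leaves arrays at 8.94 and 9.18. Zscan26 was at 8.27 and Zscan22 at 8.26, both tied, and Zkscan1 at 8.04 with tied values lay only 0.05 above the level.

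Of the Zkscan genes, many of which encode a KRAB domain, 1 of 11 (9.09%) was called, and of the Zscan genes 3 of 12 (25%), against 36.6% of all named genes. Several stood close to the level. Zscan2 was at 7.99, 7.97 and 7.99, on both sides of it, and was not called. Zkscan5 was at 7.81, 7.81 and 7.95, Zkscan14 at 7.85 ± 0.02, Zkscan2 at 7.82 and Zscan20 at 7.70, the last 2 with tied values. Within 0.3 of the background level there were 8 of 23 SCAN genes (34.8%) and 7 of 44 BTB genes (15.9%), against 11.4% of all named genes.

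Zkscan17, also called Nizp1, a partner of the histone methyltransferase NSD1, was measured by 2 probe sets that fell on opposite sides of background. One was at 9.20, 9.19 and 9.24 and above background on its own, and the other at 5.62, 5.99 and 5.62 and was not. They differed by 3.47, so the gene level of 7.48 describes neither. With the highest probe set per gene Zkscan17 was called, and the SCAN count rose to 5. It was the only member whose probe sets lay on both sides of the level.

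The 14 genes that were neither called nor named by the rule lay between 6.57 and 7.55. The lowest SCAN genes were Zkscan4 at 5.43, Zkscan16 at 6.02 and Zscan10 at 6.56, each tied on all arrays, and Zscan5b at 6.54, 6.69 and 6.43. Zscan10 is a factor of pluripotent cells. Zkscan3, a repressor of autophagy genes, was at 7.66, 7.63 and 7.66 and was not called. The Zscan4 genes, markers of the early embryo and of a transient state of embryonic stem cells, have no probe set of their own. The 3 probe sets that each name 5 Zscan4 genes, and so are no members, had means of 5.69, 5.73 and 5.76, all under background.

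**Figure D2:**
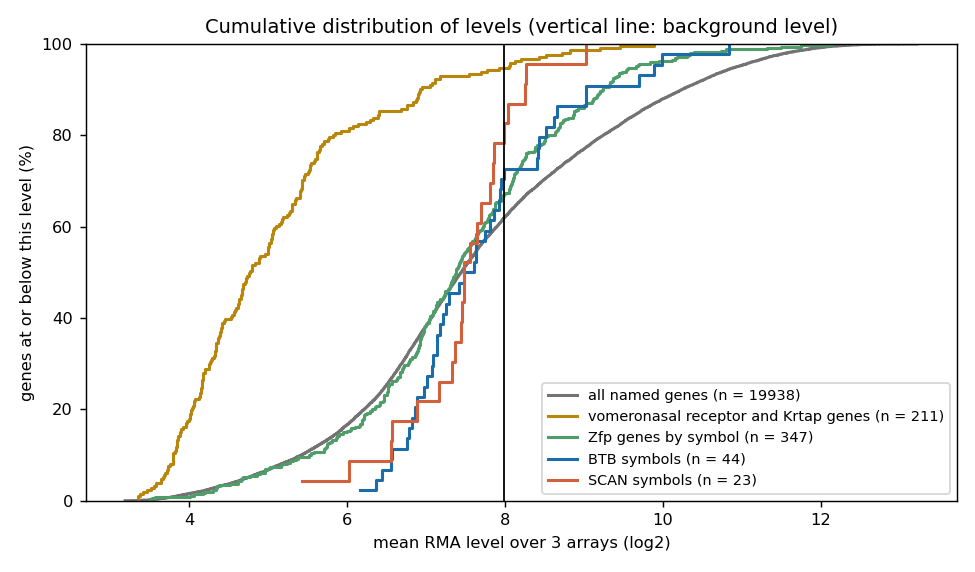
Share of genes (%, vertical axis) at or below each mean RMA level (log2, horizontal axis) for the BTB symbols, the SCAN symbols, genes with Zfp symbols, the 211 background genes and all 19938 named genes, with the background level as a vertical line. The curves of the BTB and SCAN symbols are steeper than that of all named genes, and 13 BTB and 5 SCAN genes lie to the right of the background level.

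Other families with related domains gave values to set beside these and beside the 36.6% of all named genes that were called. Among 347 genes with a Zfp symbol, most of which encode C2H2 zinc fingers, 103 (29.7%) were above background with a median of 7.38. Among 45 Klhl and Kbtbd genes, whose proteins join a BTB domain to Kelch repeats, 16 (35.6%) were, with a median of 7.31. Members of both families without a matching symbol were measured too. Of 6 other BTB zinc finger genes 3 (50%) were called: Gzf1 at 9.07 ± 0.0053, Mynn at 8.57 ± 0.20 and Zfp131 at 8.51 ± 0.11. Hic1 at 6.33, Hic2 at 7.44 and Patz1 at 7.29 were not. Of 11 other SCAN genes 6 (54.5%) were called, led by Zfp110 at 10.31 ± 0.13, Zfp397 at 9.53 ± 0.01 and Zfp445 at 9.32 ± 0.08.

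Most genes for corepressor partners of these proteins were called. Of 16 measured partners of BTB proteins 11 (68.8%) were above background, against 36.6% of all named genes, with a median of 9.06. Cul3, the ubiquitin ligase scaffold that binds BTB domains, was at 12.38 ± 0.07, the histone deacetylase genes Hdac1, Hdac2 and Hdac3 at 11.47, 11.30 and 10.30, and Sin3a at 10.19. Bcor, the corepressor named after its binding to BCL6, was at 5.91 with tied values and was not called, nor were Bcorl1, Hdac4, Hdac5 and Hdac7. Of 10 partners of KRAB proteins 9 were called, with a median of 9.32. Trim28 itself was at 9.78 with tied values and its partner Setdb1 at 9.42 ± 0.09, while Cbx3 at 7.81 ± 0.25 was the one not called. These partners serve many other proteins, and their levels say nothing of binding to a member.

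**Figure D3:**
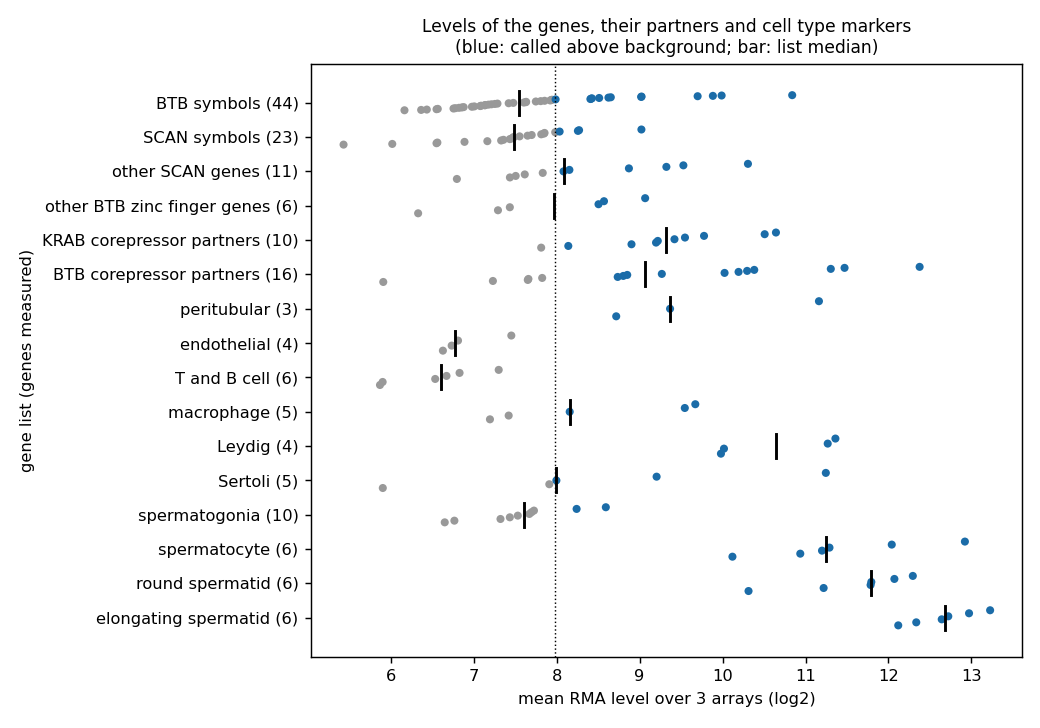
Mean RMA level (log2, horizontal axis) of each gene of the BTB and SCAN symbols, of related genes, of corepressor partners and of cell type markers, with the number of genes measured in parentheses. Blue points were called above background, the dotted line is the level of 7.98 and black bars are list medians, which run from 6.61 for T and B cell markers to 12.68 for elongating spermatid markers and are 7.54 and 7.48 for the BTB and SCAN symbols.

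The arrays differed little for the members, and array 2 departed most often. Of the 33 members that were not tied, array 2 alone differed in 12, array 3 alone in 6 and array 1 alone in 1, and all 3 differed in 14. The largest range over the arrays was 0.30, for Zbtb41. Only 5 members (7.46%) had a range over 0.2, against 12% of all named genes. Among the 17 called members array 2 was the lowest in 8 and the highest in 0, and among the 50 others it was the lowest in 7 and the highest in 11. The same held over the whole table: array 2 was lowest for 35.8% and highest for 5.87% of the genes called, and lowest for 6.6% and highest for 30.2% of the others. The departure of array 2 is thus found in genes outside these families as well.

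**Figure D4:**
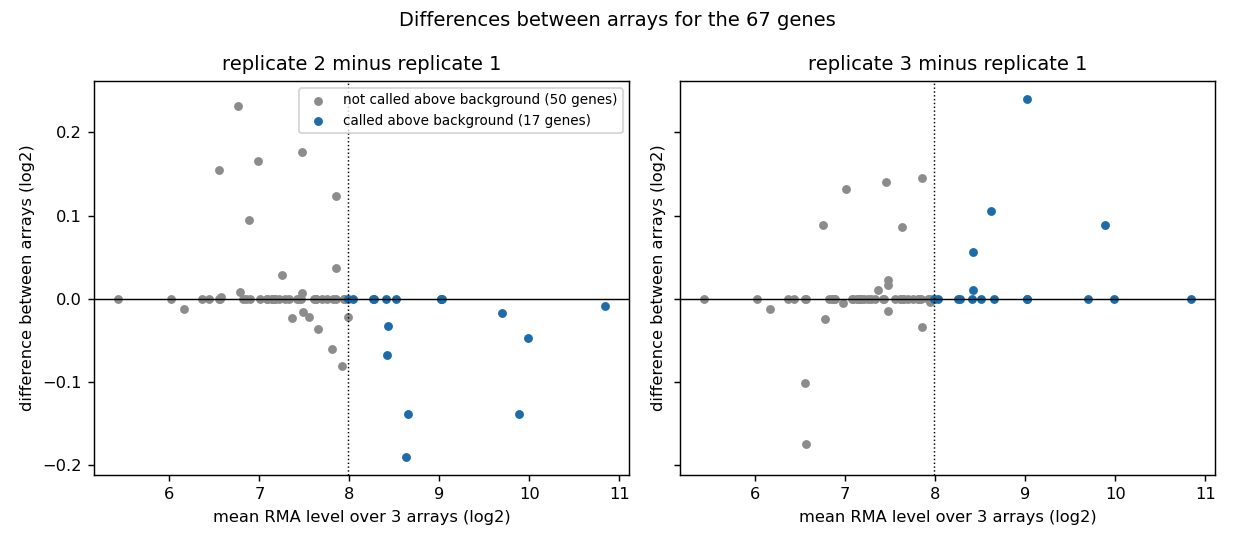
Difference between arrays (log2, vertical axis) against mean RMA level (log2, horizontal axis) for the 67 genes, array 2 minus array 1 on the left and array 3 minus array 1 on the right. Called genes, in blue, lie at or below 0 on the left, and no difference in either plot exceeds 0.24 in size.

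The genes are spread over 16 chromosomes, and chromosomes 5, 7 and 13 hold 15 of the 23 SCAN genes. By gene order in assembly GRCm38.p6, 9 pairs of members are next to each other with no other protein-coding gene between. Both genes were called in 1 pair, Zkscan1 and Zscan21 on chromosome 5, 1 gene was called in 3 pairs and none in 5. The SCAN genes on chromosome 13 were Zscan12 at 7.48, Zkscan3 at 7.65, Zscan26 at 8.27, Zkscan4 at 5.43 and Zkscan8 at 7.33, of which only Zscan26 was called. On chromosome 2, Zbtb34 at 8.41 was next to Zbtb43 at 6.44, and Zbtb26 at 8.42 next to Zbtb6 at 7.81. The levels of neighbours differed by 0.0081, for Zkscan14 and Zkscan5, to 2.60, for Zbtb8os and Zbtb8a.

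Promoters of the members were read from a RefSeq table of assembly GRCm38.p6, which held a window for 54 of the 67 genes. Zbtb10, the highest member, and Zbtb16 were among those without one. A window runs from 250 bases before to 50 bases after a transcription start, and the most upstream start of a gene was used. CpG dinucleotides are frequent in promoters of genes used in many tissues. The members' windows held a median of 22 CpG, more than the 15 over 15563 named genes, with 25.5 for the BTB and 12.5 for the SCAN symbols. Over all named genes the windows of called genes held more CpG than those of others, with medians of 21 and 9. Among the members it was the other way round, 17 for 16 called and 23 for 38 others. These medians take BTB and SCAN symbols together, though the families differ in CpG, and they are not given within each family. Single genes went both ways. Of the called genes Zbtb18 held 51 CpG and Zbtb44 41, but Zbtb20 held 3 and Zbtb32 10. Zbtb1, the lowest BTB gene and not called, held 39. These are counts for the genes of these lists, with no test.

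**Figure D5:**
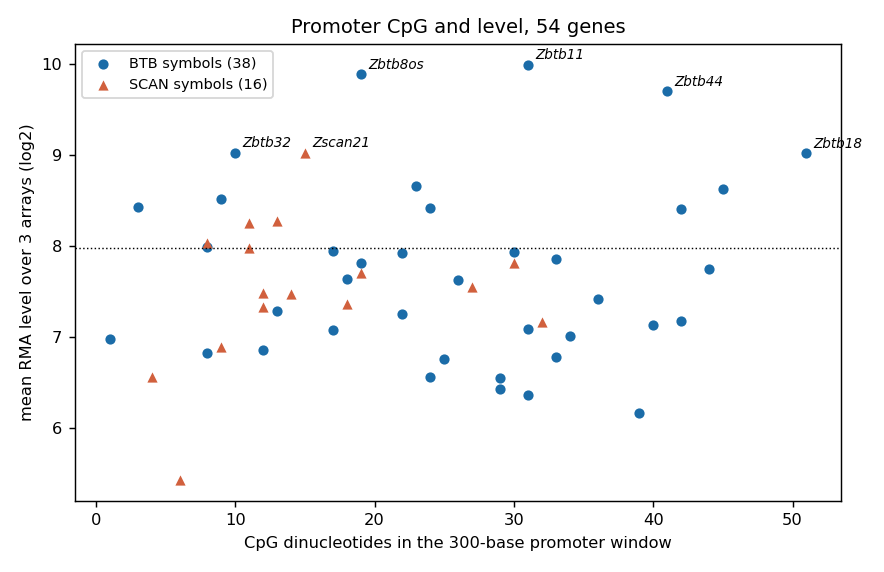
Mean RMA level (log2, vertical axis) against the number of CpG dinucleotides in the promoter window (horizontal axis) for 38 BTB and 16 SCAN genes, with the background level of 7.98 dotted and genes above 8.9 named. High levels occur at few and at many CpG, from Zbtb32 with 10 to Zbtb18 with 51. Zbtb10, the highest member, had no window and is not shown.

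The windows were searched on both strands for the letters of 8 promoter motifs, chosen after the levels were seen. The core of the motif of ETS factors, CCGGAAGT, was found in 10 of 54 members (18.5%), 4 BTB and 6 SCAN genes. It was in 3.99% of 27025 windows in the table and in 5.58% of the 15563 windows of named genes. Of the 10856 windows with at least 12 CpG, the lower quartile of the members, 8.27% held it. The members' shares were not limited in this way: Zkscan1, Zkscan4 and Zscan25 held the letters with 8, 6 and 9 CpG. Of the 10 genes 4 were called, Zbtb11, Zbtb37, Zbtb41 and Zkscan1, as were 16 of all 54 members with a window and 62.4% of all named genes with these letters. The cyclic AMP response element TGACGTCA is bound by CREM, an activator of spermatid genes. It was found in 4 members (7.41%), Zbtb11, Zbtb21, Zscan18 and Zscan20. The shares were 1.85% of all windows, 2.48% of those of named genes and 3.6% of those with at least 12 CpG. Of the 4 members Zbtb11 alone was called, against 57.5% of all named genes with this element. The other motifs are given with the share of all windows and the share of those with at least 12 CpG. The E-box CACGTG was in 7 members (13%), in 7.24% of all windows and in 11.2% of those with at least 12 CpG. CCAAT was in 19 members (35.2%), in 38% of all windows and in 36.8% of those with at least 12 CpG. TATAAA was in 2 members (3.7%), in 14.2% and in 5.34%, and the NRF1 motif in 2 members (3.7%), in 0.98% and in 2.28%. The RFX motif and the A-MYB motif AACGGTT were in 0 members. They were in 0.56% and 0.94% of all windows, and in 0.49% and 1.05% of those with at least 12 CpG. A match is a description of letters and does not show that a factor binds, and no ETS match overlaps a cyclic AMP element.

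The upstream stretches that hold these letters are shown because they set members of high and low level side by side, and were picked after the counts were seen. Each runs 5′ to 3′ along the gene's strand, ends at or before the base ahead of the start, and has the ETS or cyclic AMP letters, or their reverse complement, in capitals. That of Zbtb11, at 9.99, holds both motifs and lies at chr16:55973650-55973803 on the plus strand. That of Zbtb41, at 8.62, lies at chr1:139422281-139422382 on the plus strand. Those of genes not called are Zbtb45 at 6.57 (chr7:13009869-13009996, minus strand), Zkscan4 at 5.43 (chr13:21478776-21478848, plus strand) and Zscan29 at 7.17 with a pair of ETS matches (chr2:121171126-121171307, minus strand). The cyclic AMP element stands alone in Zscan18 at 7.36 (chr7:12803639-12803746, minus strand) and Zscan20 at 7.70 (chr4:128610107-128610234, minus strand).
Zbtb11: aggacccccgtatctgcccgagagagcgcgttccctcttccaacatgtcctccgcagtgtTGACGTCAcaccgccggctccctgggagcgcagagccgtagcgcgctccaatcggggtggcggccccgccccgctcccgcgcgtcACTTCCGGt
Zbtb41: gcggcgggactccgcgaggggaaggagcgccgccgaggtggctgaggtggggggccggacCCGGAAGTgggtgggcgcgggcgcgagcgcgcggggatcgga
Zbtb45: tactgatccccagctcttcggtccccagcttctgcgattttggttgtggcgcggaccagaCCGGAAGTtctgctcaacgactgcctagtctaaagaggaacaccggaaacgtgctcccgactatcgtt
Zkscan4: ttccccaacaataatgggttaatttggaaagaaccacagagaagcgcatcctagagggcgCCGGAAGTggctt
Zscan29: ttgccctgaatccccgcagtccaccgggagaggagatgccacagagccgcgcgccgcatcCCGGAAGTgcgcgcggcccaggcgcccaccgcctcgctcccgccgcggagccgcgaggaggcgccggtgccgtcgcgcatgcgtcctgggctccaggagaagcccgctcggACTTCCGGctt
Zscan18: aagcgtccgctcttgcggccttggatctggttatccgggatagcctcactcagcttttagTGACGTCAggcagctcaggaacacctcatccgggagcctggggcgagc
Zscan20: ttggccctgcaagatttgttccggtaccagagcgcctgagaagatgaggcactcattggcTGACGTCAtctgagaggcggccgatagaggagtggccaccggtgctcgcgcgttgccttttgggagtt
The element begins 94 bases before the start in Zbtb11, 76 in Zscan20 and 48 in Zscan18, and the ETS letters 9 bases before it in Zbtb11, 13 in Zkscan4 and 42 in Zbtb41. In these genes a match near the start was found at levels from 5.43 to 9.99, on both sides of the background level.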

How the data were processed

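RNA of 3 samples labelled as spermatids was measured on Affymetrix Mouse Gene ST arrays. Per the series' design text, the authors used Affymetrix Power Tools, with mm9-based annotation, to make RMA levels per probe set, which they deposited on the log2 scale and which were used as given. RMA sets the arrays to a common distribution, so a shift shared by all genes cannot be seen, and the depth of an array has no count behind it.

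Genes were named from the platform annotation, with symbols updated through Entrez numbers for 21698 probe sets. Probe sets naming several genes (1621) or none (12146) were left out. Several probe sets of a gene were reduced to their median. With limma 3.58.1 in R 4.3.3 an intercept was fitted to 19938 genes and the mean was tested, one-sided, for lying above the background level, with Benjamini-Hochberg adjusted p under 0.05 as the call. The code was first tested on simulated data. The p-values measure only the spread between these samples, which may be technical.

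Genes were named in the text by this rule: 24 with a known role and the Zscan4 genes, the 8 highest and 4 lowest of each family, those within 0.3 of the background level, the 5 with the largest SD, those with probe sets on both sides of the level, and those that are no zinc finger genes. Other members were named after their values were seen. The members, marker lists, partner lists and related genes were chosen with earlier results of these data known. The background level, probe set summary, scaling, variance model, filter, call rule and each array were varied. Promoter windows came from RefSeq, assembly GRCm38.p6, and were matched to genes by Entrez number. Protein sequences were not used here.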

Additional observations from a re-analysis of the deposited data

How the results depend on the processing

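The 17 members, 13 BTB and 4 SCAN, were called in numbers that moved with the background level. The 99th percentile level of 9.16 gave 4, 4 and 0 (the SCAN count was 0 also at limma's unadjusted p under 0.05 and by asking for all 3 arrays above it), against 19.3% of all named genes. There 13 of the 17 genes lay under the level: Zbtb3, Zbtb26 and Zbtb34, and also Zbtb18 (-0.14 relative to background), Zbtb32 (-0.14), Zscan21 (-0.14), Zbtb37 (-0.51), Zbtb41 (-0.54), Zbtb20 (-0.74), Zscan26 (-0.89), Zscan22 (-0.91), Zkscan1 (-1.13) and Zbtb38 (-1.17). The olfactory receptor level of 7.18 gave 44, 27 and 17, against 55%. Leaving pseudogenes out of the background families, an alternative chosen after seeing the data, set the level at 7.64 and gave 28 members with 9 SCAN genes, against 43.6%. Adding probe sets that name several genes raised the level to 8.33 and gave 11 members with 1 SCAN gene, with Zbtb38 at -0.34, Zkscan1 at -0.29, Zscan22 at -0.070 and Zscan26 at -0.055. The median level of 7.48 became 7.55 with the highest probe set per gene and with each probe set on its own. With 1 array left out the counts ran from 13 to 18, from 10 to 14 for BTB and from 3 to 4 for SCAN, and the median from 7.49 to 7.51. The share of all named genes is not given for the added probe sets or with 1 array left out. Those counts therefore do not show whether the members moved more than other genes. The highest probe set, single probe sets, centring, trended and robust variances, the filter, the rule of all 3 arrays (37.6% of all named genes) and leaving out the 2 genes that are no zinc finger genes, also chosen after seeing the data, kept each of the 3 counts within 1.5 times. No paired analysis was possible because there is 1 group. With 3 arrays, signal near background limits what can be said of most members.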

Other observations

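Many probe sets carried exactly the same value as another probe set. On array 1, 15828 of 35556 probe sets (44.5%) shared their value with at least 1 other, and so did 44 of the 71 probe sets of the BTB and SCAN genes. Values tied over the 3 arrays, as for Zbtb32 and Zbtb18, are counted apart from this.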
